A study of Homo sapiens with 8 samples.

Results

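*ESRP1* and *ESRP2* encode the epithelial splicing regulatory proteins, and they are described here with *QKI* and *RBFOX2*, which encode splicing factors active in mesenchymal cells, and with *FGFR2*, *CD44*, *CTNND1* and *ENAH*, genes whose transcripts the ESRP proteins are known to splice. The 8 genes were chosen by name, with earlier results of these data known, out of 33791 genes with estimated counts. Their transcripts were found by identifier in GENCODE release 29, which gave 160 of 153245 transcripts. RNA-seq was performed on PNT2, a human prostate epithelial cell line that was immortalized, in 4 groups that each hold a replicate A and a replicate B. The groups were parental cells (WT), cells labelled *ERF* KD (short hairpin RNA against the ETS2 repressor factor *ERF*), cells labelled *CIC* KO (Cas9 with a guide RNA against the repressor *CIC*), and cells with both losses, which the labels call a CIC-ERF codeletion (*ERF* KD + *CIC* KO). Replicate letters could mark different hairpins or guides, or repeat cultures of 1 line, and the sources used here do not say which. All p-values here therefore measure only the spread between these libraries, which may be technical.

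Before any direction is read from the single-loss libraries, their labels need a caution. *ERF* was 69.4 and 60.5 TPM (a level scaled by transcript length and library) in WT and 67.9 and 88.7 TPM in the *ERF* KD-labelled libraries. It was 36.4 and 16.4 TPM in those labelled *CIC* KO and 19.3 and 16.9 TPM in *ERF* KD + *CIC* KO. The single-loss group with little *ERF* mRNA was therefore the one labelled *CIC* KO. The tables of these 4 libraries were also deposited under names whose letters are opposite to the labels. *CIC*, whose mRNA a guide RNA need not lower, was between 35.6 and 45.0 TPM in all 6 libraries other than those of *ERF* KD + *CIC* KO. The groups keep their labels here, and every statement on a single-loss group refers to the libraries that carry that label. The *ERF* KD-labelled libraries stood apart from the rest in cell type markers too. The summed level of 6 epithelial markers was between 2838 and 3536 TPM in the other libraries and 1243 and 1427 TPM in these, and that of 5 mesenchymal markers was between 83.6 and 215 TPM against 1392 and 1682 TPM. *VIM* made up most of the mesenchymal sum, with 1284 and 1592 TPM, and 1 of the 6 epithelial markers (*KRT14*) was under 1 TPM in both of these libraries. Of the 5 mesenchymal markers, 2 (*CDH2* and *VIM*) were higher in these libraries than in WT at an adjusted p under 0.05 (edgeR). The other 3 did not pass, though *PDGFRB* did in a fit with the replicate letter as a block. *COL1A1* was 27.3 and 15.7 TPM in these libraries and 24.4 and 15.9 TPM in WT. The summed level of 2 blood markers was at most 1.65 TPM in any library, and that of 2 endothelial markers was between 2.49 and 29.1 TPM, highest in *ERF* KD + *CIC* KO replicate A. The part of these other cell type markers in the results below was not tested. Library totals ran from 19477473 to 25813157 estimated counts.

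ESRP proteins bind GU-rich sequence beside alternative exons and set whether the exon is kept or skipped. Epithelial cells express both ESRP genes and keep the IIIb exon of *FGFR2*, the variable exons of *CD44* and exon 11a of *ENAH*, and they make *CTNND1* mRNA from which the shorter p120-catenin protein is translated. Mesenchymal cells lack ESRP proteins and make the IIIc receptor, the standard CD44 protein, ENAH without 11a and the longer p120-catenin. QKI and RBFOX2 act on some of the same exons, often in the opposite direction. ZEB1 and ZEB2, repressors of epithelial genes, are known to repress *ESRP1*.

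The exons and start codons that separate the isoform classes of *CD44*, *CTNND1* and *ENAH* are given from the GENCODE 29 transcript sequences (GRCh38), since the shares reported here rest on which of them a transcript holds. The IIIb and IIIc exons of *FGFR2* (minus strand) encode the second part of the third Ig domain of the receptor and exclude each other.

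*CD44* (plus strand of chromosome 11) holds 9 variable exons in the annotation, v2 to v10, each of a length that keeps the reading frame. Variable exons v8 and v9 (chr11:35208105-35208206 and chr11:35209965-35210054, 192 bases together) and v10 (chr11:35211246-35211449, 204 bases) are shown because transcripts that differ in them took other shares in the groups. Capitals mark the exons named on each line, in the transcripts *CD44-209* and *CD44-210*. The 20 lower-case bases on each side belong to the exons they are joined to. In *CD44-209* the lower-case bases after v9 are the start of v10, itself a variable exon.
CD44 v8 and v9 in CD44-209: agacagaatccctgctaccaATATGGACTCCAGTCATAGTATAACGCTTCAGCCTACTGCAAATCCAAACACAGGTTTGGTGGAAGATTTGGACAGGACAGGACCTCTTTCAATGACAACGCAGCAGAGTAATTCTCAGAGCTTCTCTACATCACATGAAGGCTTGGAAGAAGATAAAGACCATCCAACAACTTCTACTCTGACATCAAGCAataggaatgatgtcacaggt
CD44 v10 in CD44-210: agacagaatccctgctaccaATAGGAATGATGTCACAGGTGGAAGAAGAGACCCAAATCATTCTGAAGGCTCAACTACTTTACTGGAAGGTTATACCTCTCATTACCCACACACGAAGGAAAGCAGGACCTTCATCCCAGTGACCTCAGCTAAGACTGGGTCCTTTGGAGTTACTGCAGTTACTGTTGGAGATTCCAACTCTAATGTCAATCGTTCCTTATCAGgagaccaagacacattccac

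*CTNND1* (plus strand of chromosome 11) encodes p120-catenin, and its transcripts were classed by the start codon of the annotated protein. The first start codon is at chr11:57791479-57791481 and the third at chr11:57795613-57795615, which is residue 102 of the longest annotated protein. The 30 bases from each start are given with the start codon in capitals.
CTNND1 start 1: ATGgacgactcagaggtggagtcgaccgcc
CTNND1 start 3: ATGcaggagccggggcagattgtggagacc

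Exon 11a of *ENAH* (minus strand, chr1:225504991-225505053) has 63 bases and lies in the coding part of the gene, which encodes an actin regulator of cell protrusions and junctions. The cassette exon of *SLK* that *SLK-202* holds and *SLK-201* lacks (plus strand, chr10:104010816-104010908, 93 bases) is shown because it gave the clearest change among the other genes described as ESRP targets. Capitals mark the exons.
ENAH 11a: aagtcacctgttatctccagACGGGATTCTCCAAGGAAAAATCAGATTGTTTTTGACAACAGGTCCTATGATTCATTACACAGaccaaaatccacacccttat
SLK exon of SLK-202: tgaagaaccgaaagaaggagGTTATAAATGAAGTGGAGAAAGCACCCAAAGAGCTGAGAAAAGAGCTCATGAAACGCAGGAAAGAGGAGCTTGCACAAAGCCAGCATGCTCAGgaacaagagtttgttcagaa

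Both ESRP genes were far lower in the *ERF* KD-labelled libraries than in WT, and neither was detectably lower in the other groups. *ESRP1* was 107 and 96.5 TPM in WT replicates A and B, 5.41 and 7.38 TPM in the *ERF* KD-labelled libraries, 100.1 and 76.8 TPM in those labelled *CIC* KO and 95.6 and 97.4 TPM in *ERF* KD + *CIC* KO. The *ERF* KD-labelled libraries lay below all others, and the other 3 groups overlapped. In estimated counts this was 216 and 289 in the *ERF* KD-labelled libraries against 4371 and 4035 in WT. Tested on gene sums of the estimated counts with edgeR's quasi-likelihood test over 14653 genes, *ESRP1* fell by 4.06 on the log2 scale in the *ERF* KD-labelled libraries (SE 0.195, 16.7-fold, adjusted p = 3.47e-05). All 6 *ESRP1* transcripts that made up at least 5% of the gene in a group were lower there. *ESRP1-203*, the most abundant, was 41.0 and 34.2 TPM in WT and 2.004 and 2.16 TPM in the *ERF* KD-labelled libraries.

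*ESRP2*, the paralog of *ESRP1* (GRCh38 chr16:68229111-68238102, minus strand), was 45.9 and 48.9 TPM in WT and 9.06 and 8.51 TPM in the *ERF* KD-labelled libraries. It fell by 2.47 there (SE 0.185, 5.53-fold, adjusted p = 0.000163, edgeR). It was 35.3 and 38.6 TPM in the *CIC* KO-labelled libraries and 39.2 and 34.6 TPM in *ERF* KD + *CIC* KO. Both of these groups lay below both WT libraries, but the log2 differences of -0.25 (SE 0.172, adjusted p = 0.9997) and -0.28 (SE 0.172, adjusted p = 0.525) did not pass the test. *ESRP2* thus kept a larger part of its level than *ESRP1* in the *ERF* KD-labelled libraries, and whether the 2 log2 changes differ from each other was not tested. The direction of *ESRP1* and *ESRP2* in the *ERF* KD-labelled libraries was the same in every alternative fit run, with adjusted p-values up to 0.000502 and 0.00153. In bulk RNA, fewer cells that express a gene and less of its RNA per cell cannot be told apart.

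**Figure D1:**
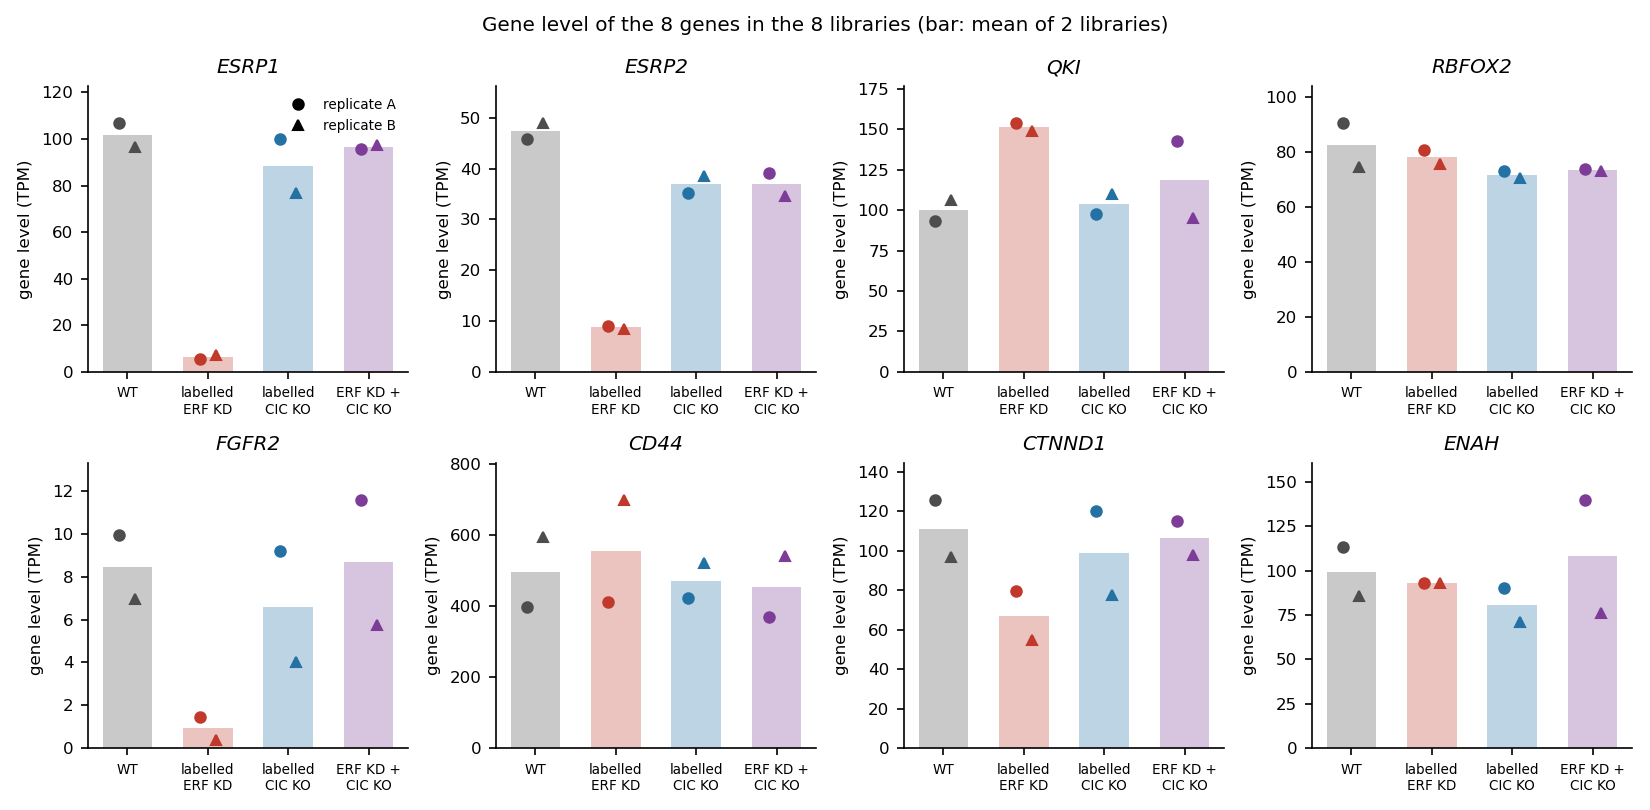
Gene level in TPM (linear vertical axis from 0) of the 8 genes in each library, with circles for replicate A, triangles for replicate B and bars for the mean of the 2. *ESRP1*, *ESRP2* and *FGFR2* are low in the *ERF* KD-labelled libraries (5.41 and 7.38 TPM for *ESRP1*), while the libraries of *RBFOX2*, *CD44* and *ENAH* in that group overlap those of WT.

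*QKI*, which encodes a STAR-family RNA-binding protein (chr6:163414000-163578596, plus strand), was the only one of the 4 regulators for which both libraries labelled *ERF* KD lay above WT, at 154 and 149 TPM. It was 93.3 and 107 TPM in WT, 97.3 and 109.8 TPM in the *CIC* KO-labelled libraries and 142 and 95.1 TPM in *ERF* KD + *CIC* KO, where the libraries straddled those of WT. The *ERF* KD-labelled libraries lay above all others, but the log2 difference from WT of 0.50 was not past the threshold (SE 0.167, adjusted p = 0.103, edgeR). The adjusted p ran from 0.0420 to 0.446 over the alternative fits, and DESeq2 and edgeR without the filter put it under 0.05. *RBFOX2*, which encodes an RNA-binding protein that recognizes GCAUG (chr22:35738736-36028425, minus strand), was 90.4 and 74.7 TPM in WT, 80.8 and 75.5 TPM in the *ERF* KD-labelled libraries, 72.9 and 70.5 TPM in those labelled *CIC* KO and 73.7 and 73.1 TPM in *ERF* KD + *CIC* KO. None of its log2 differences from WT was larger than 0.16 in size (SE 0.127 each), and the sign of that in the *ERF* KD-labelled libraries (0.07) turned on the TPM scale (-0.07, limma on log2(TPM + 1)).

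Levels per transcript length put the 4 regulators in different orders in the groups. In WT the means were 102 TPM for *ESRP1*, 99.9 TPM for *QKI*, 82.6 TPM for *RBFOX2* and 47.4 TPM for *ESRP2*. The libraries of the first 2 overlapped, as those of *RBFOX2* and *QKI* did not. In the *ERF* KD-labelled libraries the means were 151 TPM for *QKI*, 78.2 TPM for *RBFOX2*, 8.79 TPM for *ESRP2* and 6.40 TPM for *ESRP1*, with no overlap between neighbours. The order in *ERF* KD + *CIC* KO was *QKI* (119 TPM), *ESRP1* (96.5 TPM), *RBFOX2* (73.4 TPM) and *ESRP2* (36.9 TPM), where the libraries of *QKI* and *ESRP1* overlapped.

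*QKI* is known for alternative last exons that give proteins with different C-terminal ends, and 3 of the annotated coding ends are described here, ordered along chromosome 6. An end that lies before these was grouped with other transcripts. Transcripts with the most distal end, among them *QKI-202* and *QKI-210*, took 41.7% and 46.1% of *QKI* TPM in WT and 45.1% and 35.5% in the *ERF* KD-labelled libraries. Those with the middle end, among them *QKI-204*, took 37.7% and 31.4% in WT and 33.9% and 34.2% in the *ERF* KD-labelled libraries. *QKI-204*, which made up most of this end, is marked by the annotation as a target of nonsense-mediated decay. The first of the 3 ends took 10.1% and 1.33% in WT and at most 2.18% in the other libraries. For the distal and middle ends the shares in the *ERF* KD-labelled libraries overlapped those of WT. Of 37 transcripts of the 4 regulators tested for a change of usage within their gene (edgeR's diffSpliceDGE), 0 were called in the *ERF* KD-labelled libraries, with 2 at an unadjusted p under 0.05.

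**Figure D2:**
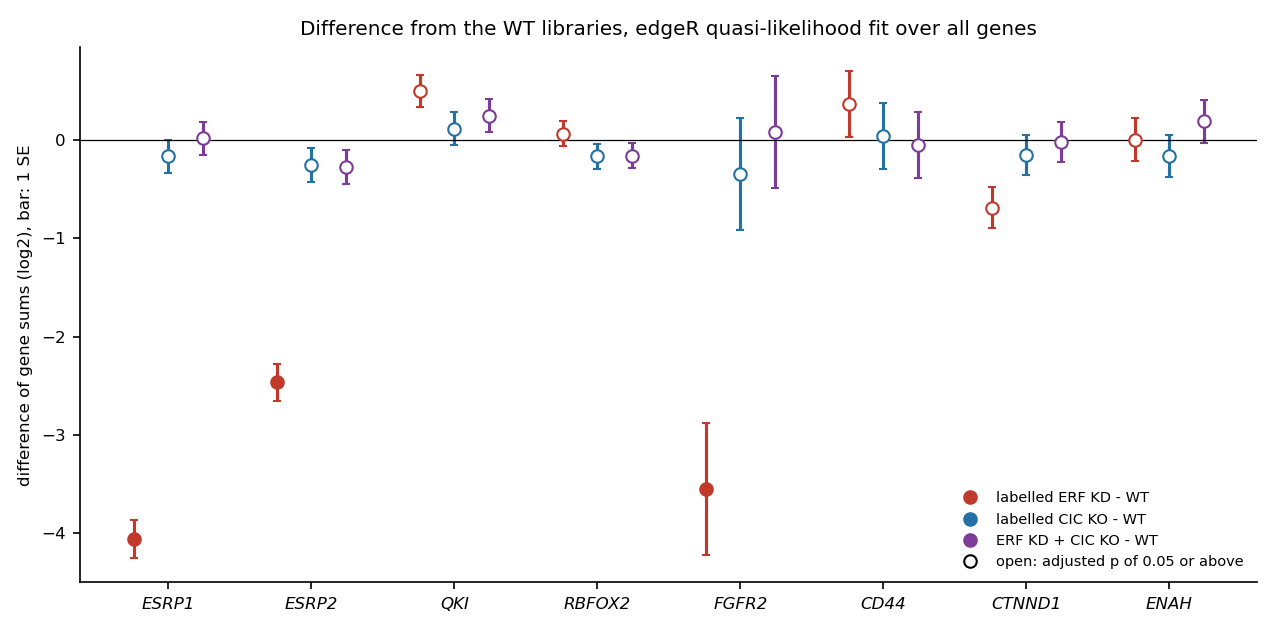
Log2 difference of gene sums from WT (vertical axis) for the 8 genes in the 3 other groups, with bars of 1 SE and filled points for an adjusted p under 0.05 in edgeR's fit over all genes. The 3 filled points are *ESRP1* (-4.06), *ESRP2* (-2.47) and *FGFR2* (-3.55) in the *ERF* KD-labelled libraries.

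*FGFR2*, the receptor whose IIIb form binds FGF7 and FGF10 and whose IIIc form binds FGF2, had the lowest level of the 4 target genes in every library and was lower still in the *ERF* KD-labelled libraries. It was 9.95 and 6.95 TPM in WT, 1.47 and 0.378 TPM in the *ERF* KD-labelled libraries, 9.20 and 4.01 TPM in those labelled *CIC* KO and 11.6 and 5.75 TPM in *ERF* KD + *CIC* KO. It fell by 3.55 in the *ERF* KD-labelled libraries (SE 0.670, 11.7-fold, adjusted p = 0.0135, edgeR), which held 50 and 11 estimated counts of it against 414 and 299 in WT. Without WT replicate A the adjusted p was 0.0518. In WT, transcripts with the IIIb exon took 90.7% and 79.8% of the TPM of transcripts that hold 1 of the 2 exons. The share was 63.5% and 95.6% in the *CIC* KO-labelled libraries and 84.1% and 77.8% in *ERF* KD + *CIC* KO. Those labelled *ERF* KD had 36.5% in replicate A, from 11 IIIb and 27 IIIc counts, and 100% in replicate B, from 5 IIIb counts and 0 IIIc counts. Unclassed transcripts held 33.1% and 20.7% of all *FGFR2* TPM in WT and 50.5% and 71.4% in the *ERF* KD-labelled libraries. A switch between IIIb and IIIc was not detectable at this depth, and the usage test gave a log2 change of -1.14 for IIIb (SE 1.05, adjusted p = 1) and of 1.79 for IIIc (SE 1.40, adjusted p = 1). In TPM, IIIb transcripts went from 6.04 and 4.40 in WT to 0.267 and 0.108 in the *ERF* KD-labelled libraries, and IIIc transcripts from 0.618 and 1.11 to 0.463 and 0.

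*CD44*, the hyaluronan receptor, did not differ from WT detectably as a gene in any group, while its transcripts took other shares in the *ERF* KD-labelled libraries. The gene was 398 and 596 TPM in WT, 413 and 700.4 TPM in the *ERF* KD-labelled libraries, 422 and 522 TPM in those labelled *CIC* KO and 369 and 542 TPM in *ERF* KD + *CIC* KO. Replicate B was above replicate A in each group, the groups overlapped, and the log2 differences from WT were between -0.05 and 0.37 (SE 0.336 at most, adjusted p of 0.556 or above). Transcripts with at least 1 variable exon took 77.3% and 81.8% of the TPM of classed transcripts in WT, 78.6% and 82.2% in the *CIC* KO-labelled libraries and 81.3% and 85.3% in *ERF* KD + *CIC* KO. Their share was 36.9% and 44.0% in the *ERF* KD-labelled libraries, below all other libraries. Standard transcripts, which join the constant exons on either side directly, made up the rest. They were 71.5 and 84.8 TPM in WT and 174 and 305 TPM there. Unclassed transcripts held 20.8% and 21.7% of all *CD44* TPM in WT and 33.1% and 22.3% in the *ERF* KD-labelled libraries.

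Single *CD44* transcripts showed which variable exons were involved. *CD44-209*, with v8, v9 and v10, was 94.2 and 149 TPM in WT and 29.4 and 59.1 TPM in the *ERF* KD-labelled libraries. *CD44-206*, with v3 to v10, was 61.2 and 96.0 TPM in WT and 3.51 and 8.94 TPM there. *CD44-201*, a standard transcript, was 70.4 and 83.6 TPM in WT and 127 and 184 TPM in the *ERF* KD-labelled libraries. *CD44-210*, which holds v10 alone, was 0.656 and 1.80 TPM in WT and 41.5 and 85.4 TPM in the *ERF* KD-labelled libraries, so that the class of variant transcripts held a different transcript there. *CD44-207*, a standard transcript that the annotation marks as a target of nonsense-mediated decay, was 0.706 and 0 TPM in WT and 45.5 and 118 TPM there. For these 5 transcripts the *ERF* KD-labelled libraries did not overlap any other library. Among the 8 transcripts that span the whole variable region, which carried between 58.2% and 67.4% of *CD44* TPM, those with v8 took 69.1% and 75.0% in WT and 13.1% and 15.3% in the *ERF* KD-labelled libraries. Those with v6 took 26.1% and 27.6% in WT and 1.38% and 1.90% there, and those with v10 took 66.5% and 71.2% against 29.3% and 32.7%. No TPM was listed on these 8 transcripts for v2.

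**Figure D3:**
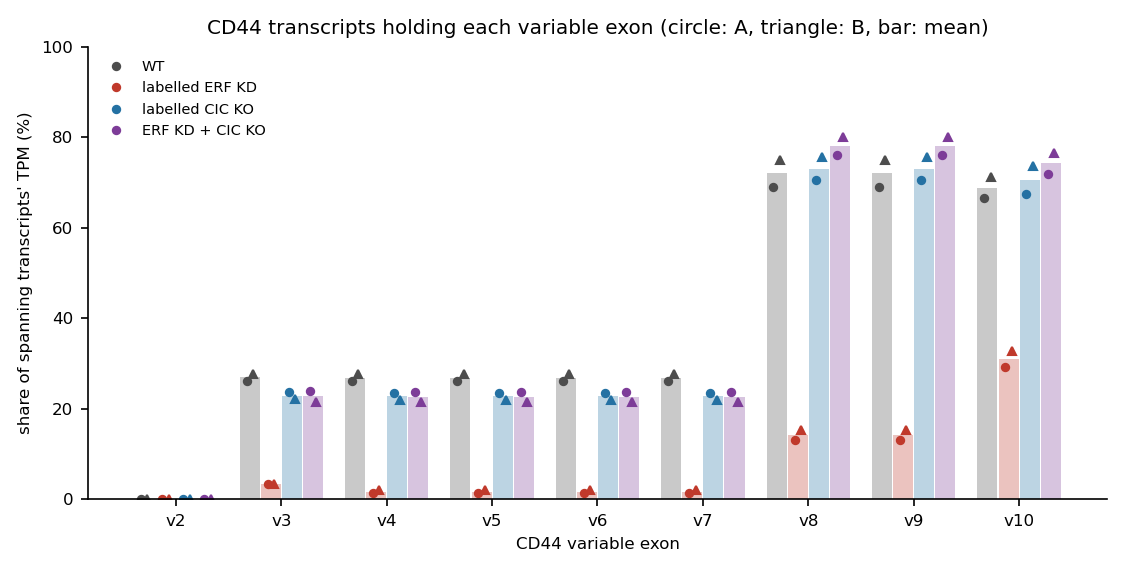
Share (percent of TPM) of the 8 *CD44* transcripts that span the variable region which hold each variable exon, v2 to v10, by group, with circles for replicate A, triangles for replicate B and bars for the mean. In the *ERF* KD-labelled libraries, v3 to v7 are at or below 3.41%, v8 and v9 near 14.2% and v10 at 31.0%, while the other groups lie close together at every exon.

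The usage test compares the change of an isoform class, in estimated counts, with that of its whole gene, over 56875 rows of 10956 genes. For the variant class of *CD44* it gave a log2 change of -1.48 in the *ERF* KD-labelled libraries (SE 0.395, adjusted p = 0.223 by edgeR's diffSpliceDGE), which did not pass over all rows. With the replicate letter as a block the adjusted p was 0.00217, and with limma's diffSplice it was 0.0913. For the standard class the log2 change was 0.92 (SE 0.389, adjusted p = 0.903, or 0.0857 with the block).

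*CTNND1* gave the isoform change that passed this test. p120-catenin, its product, binds the tail of cadherins and keeps them at the cell surface. Transcripts that start at the third codon took 92.4% and 93.0% of classed TPM in WT, 90.8% and 90.2% in the *CIC* KO-labelled libraries and 92.7% and 94.3% in *ERF* KD + *CIC* KO, and 56.8% and 47.6% in the *ERF* KD-labelled libraries. The first-start transcripts, which took the rest, were 8.92 and 6.53 TPM in WT and 29.8 and 23.8 TPM in the *ERF* KD-labelled libraries, where third-start transcripts went from 108 and 87.0 TPM to 39.3 and 21.7 TPM. Unclassed transcripts held 7.02% and 3.16% of all *CTNND1* TPM in WT and 12.9% and 16.6% in the *ERF* KD-labelled libraries. Relative to the gene, the first-start class rose by 2.83 on the log2 scale in the *ERF* KD-labelled libraries (SE 0.479, adjusted p = 0.0200 by diffSpliceDGE, 0.0218 with the block, 0.0118 by limma's diffSplice). Without WT replicate A, WT replicate B or *ERF* KD replicate B the adjusted p was 0.203, 0.216 and 0.101, with log2 changes of 2.80, 2.86 and 2.69. The third-start class had a log2 change of -0.97 (SE 0.389, adjusted p = 0.801), and limma's diffSplice, which sets a class against the mean of the others, put it at -3.96 (adjusted p = 0.000377).

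The transcripts behind this were few. *CTNND1-223*, with the third start, was 75.3 and 64.8 TPM in WT and 26.3 and 11.5 TPM in the *ERF* KD-labelled libraries. *CTNND1-201*, with the first start, was 1.80 and 1.22 TPM in WT and 19.4 and 15.5 TPM there, and at most 0.796 TPM in the 4 libraries of the other groups. *CTNND1-208*, also with the first start, was listed at 0 in both WT libraries and was 3.73 and 4.14 TPM in the *ERF* KD-labelled libraries. *CTNND1-222*, the main first-start transcript of WT, was 3.98 and 4.02 TPM in WT and 4.01 and 3.33 TPM there. The gene as a whole was 125.7 and 96.6 TPM in WT, 79.4 and 54.6 TPM in the *ERF* KD-labelled libraries, 120.2 and 77.8 TPM in those labelled *CIC* KO and 115 and 97.7 TPM in *ERF* KD + *CIC* KO. Its log2 difference from WT was -0.69 in the *ERF* KD-labelled libraries (SE 0.207, adjusted p = 0.0770 by edgeR, and 0.00614 in the fit with the replicate block).

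**Figure D4:**
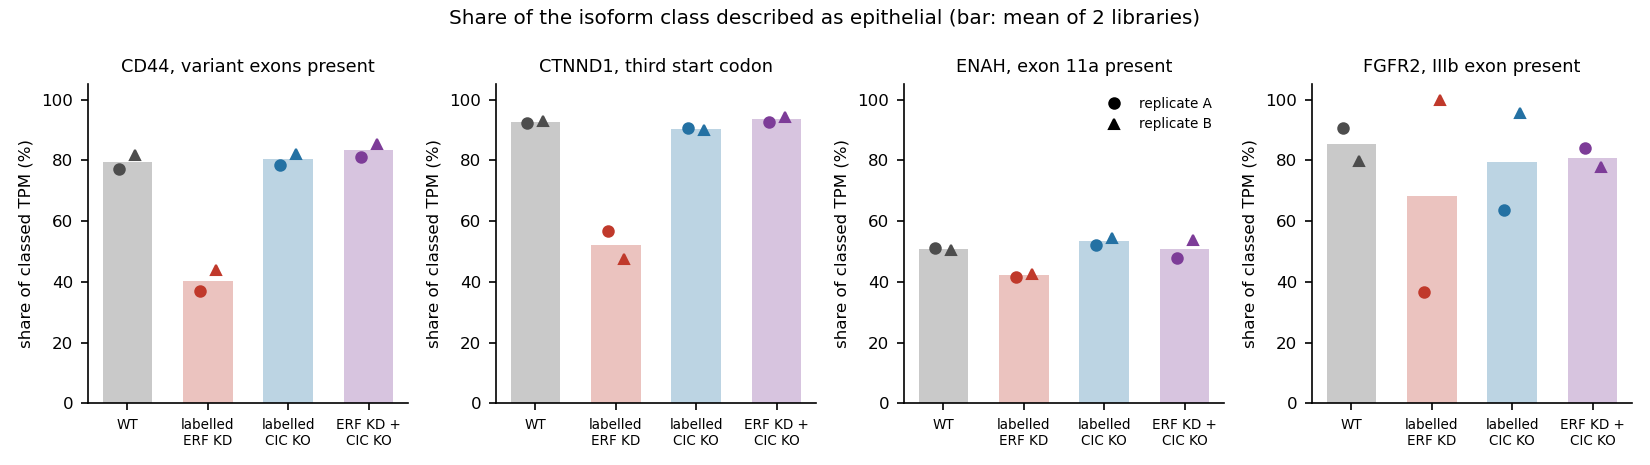
Share (percent of the TPM of classed transcripts) of the isoform class described as epithelial for *CD44*, *CTNND1*, *ENAH* and *FGFR2* in each library, with circles for replicate A, triangles for replicate B and bars for the mean of the 2. For *CD44* and *CTNND1* the *ERF* KD-labelled libraries lie apart (36.9% and 44.0% for *CD44*), while for *FGFR2* they span 36.5% to 100%.

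*ENAH* did not change detectably, either as a gene or in its isoform classes. Its level was 113 and 85.4 TPM in WT, 93.2 and 93.1 TPM in the *ERF* KD-labelled libraries, 90.3 and 71.3 TPM in those labelled *CIC* KO and 139.8 and 76.2 TPM in *ERF* KD + *CIC* KO, and no comparison passed the test. Transcripts with exon 11a took 51.3% and 50.5% of classed TPM in WT and 41.6% and 42.7% in the *ERF* KD-labelled libraries, which lay below all others. They took 52.2% and 54.4% in the *CIC* KO-labelled libraries and 47.7% and 53.7% in *ERF* KD + *CIC* KO. Unclassed transcripts held 34.8% and 29.9% of all *ENAH* TPM in WT and 27.8% and 27.4% in the *ERF* KD-labelled libraries. The usage test gave a log2 change of -0.14 (SE 0.265, adjusted p = 1) in the *ERF* KD-labelled libraries. Most of the 11a signal came from *ENAH-202*, which the annotation lists as a retained intron (33.5 and 27.0 TPM in WT, 23.9 and 24.9 TPM in the *ERF* KD-labelled libraries). With protein-coding transcripts alone, *ENAH-204* against *ENAH-203*, the mean 11a share was 10.2% in WT and 9.40% in the *ERF* KD-labelled libraries, and the log2 usage change turned to 0.14. *ENAH-204* itself was 4.31 and 3.22 TPM in WT and 4.11 and 3.999 TPM there.

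The counts of members called are set here beside those over all genes tested. The members were chosen with earlier results of these data known, so these shares are no test of the set. In the *ERF* KD-labelled libraries, 3 of the 8 genes were lower than WT (*ESRP1*, *ESRP2* and *FGFR2*) and 0 higher, where 10.1% of all genes tested were called and 6.07% were lower. Of the 12 class rows of the 4 target genes, 1 was called (*CTNND1*, first start) against 0.216% of all usage rows, and limma's diffSplice called 2 (both classes of *CTNND1*) against 0.132%. For the *CIC* KO-labelled libraries, 0 of 8 genes and 0 of 12 class rows were called, and 0 of each had an unadjusted p under 0.05. The background there was 0% of genes and 0.167% of usage rows. In *ERF* KD + *CIC* KO against WT, 0 of 8 genes and 0 of 12 class rows were called, with 0 of each at an unadjusted p under 0.05, against 0.0682% of genes and 0.102% of usage rows. DESeq2, the fits on TPM and the other alternatives also called 0 of the 8 genes in these comparisons of the *CIC* KO-labelled libraries and of *ERF* KD + *CIC* KO with WT.

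*ERF* KD + *CIC* KO was then compared with the *ERF* KD-labelled libraries, which are the same libraries as in the comparison with WT, so that the values below are not independent of those above. *ESRP1* was higher by 4.08 (SE 0.195, adjusted p = 2.72e-05), *ESRP2* by 2.19 (SE 0.183, adjusted p = 0.000257) and *FGFR2* by 3.64 (SE 0.671, adjusted p = 0.0111, or 0.0710 without *ERF* KD + *CIC* KO replicate A) on the log2 scale (edgeR). These were 3 of 8 genes, all higher, against 11.7% of all genes called and 6.04% higher. In the fit with the replicate block, 5 of 8 were called, *CTNND1* (log2 difference 0.69, adjusted p = 0.00626 against 0.0770 without the block) and *CD44* (-0.40, adjusted p = 0.0342 against 0.495) in addition. In usage, the first-start class of *CTNND1* fell by 3.05 (SE 0.484, adjusted p = 0.0135), which was 1 of 12 class rows against 0.195% of all rows. With a library left out its log2 change ran from -3.24 to -2.90, and the call did not hold in every such fit. Limma's diffSplice called 3 (both *CTNND1* classes and the variant class of *CD44*, adjusted p = 0.0209) against 0.19%. The variant class of *CD44* had a log2 change of 1.67 by diffSpliceDGE (SE 0.397, adjusted p = 0.155, or 0.00101 with the block). For the standard class the change was -1.18 (SE 0.391), with an adjusted p of 0.484 that became 0.0136 in the blocked fit.

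Whether the 2 losses added up on the log2 scale was tested with an interaction term, which is the same whichever of these groups is which. This term uses the same *ERF* KD-labelled libraries as the comparisons above, so it is not independent of them. It was 4.25 for *ESRP1* (SE 0.253, adjusted p = 0.000228), 2.44 for *ESRP2* (SE 0.250, adjusted p = 0.00167) and 3.98 for *FGFR2* (SE 0.876, adjusted p = 0.0452) on the log2 scale. These 3 of 8 stand against 4.15% of all genes called and 2.67% with a positive term. For *CTNND1* the term of the gene sum was 0.82 (adjusted p = 0.191, or 0.0200 with the block). In usage, the first-start class of *CTNND1* had a term of -3.40 (SE 0.653, adjusted p = 0.0358), which was 1 of 12 class rows against 0.346% of all rows. That of the variant class of *CD44* was 1.60 (SE 0.550, adjusted p = 0.494, or 0.0146 with the block). The term of *FGFR2* passed in 2 of the 8 fits that left out a library, and that of the *CTNND1* class in 0 of 8.

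**Figure D5:**
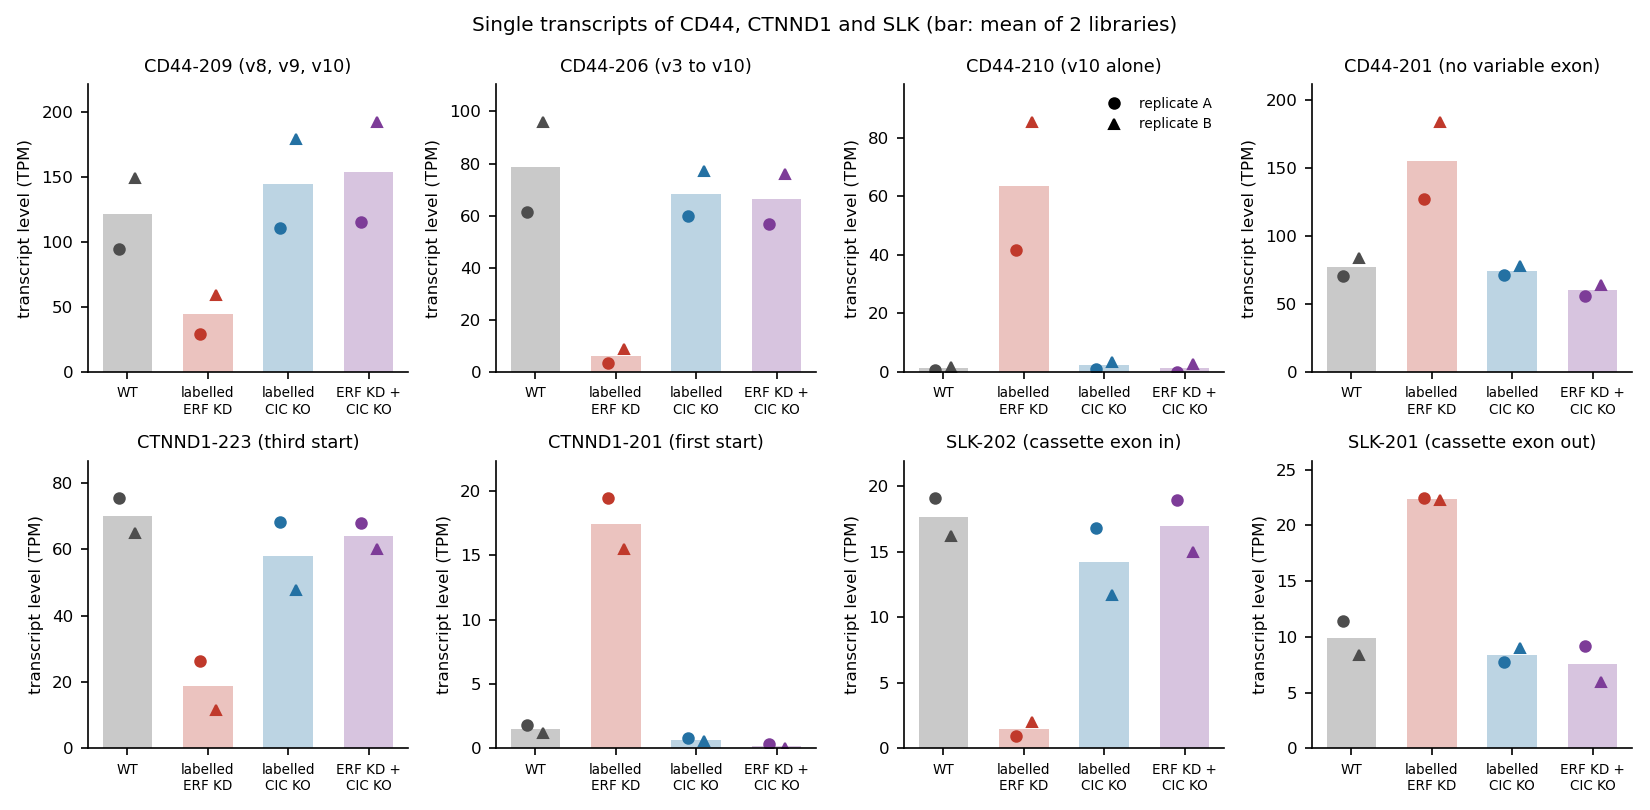
Level in TPM (linear vertical axis from 0) of single transcripts of *CD44*, *CTNND1* and *SLK* in each library, with circles for replicate A, triangles for replicate B and bars for the mean of the 2. In the *ERF* KD-labelled libraries, *CD44-206*, *CTNND1-223* and *SLK-202* are low (0.958 and 2.02 TPM for *SLK-202*) and *CD44-210*, *CTNND1-201* and *SLK-201* are high.

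Other genes described as spliced under ESRP control were read as a list of 21, all of which were tested. Their gene levels moved little. Against WT, 0 were higher and 2 lower in the *ERF* KD-labelled libraries, *TJP1* by 0.68 (SE 0.135, adjusted p = 0.0160), which encodes the junction scaffold ZO-1, and *CLSTN1* by 0.63 (SE 0.120, adjusted p = 0.0143), and the median log2 difference of the 21 was 0.04 against 0.01 over all genes. The 2 called are 9.52% of the list, near the 10.1% of all genes called, and 4 were called with the replicate block. At the level of transcripts, a look added after the gene sums had been seen, 7 of 165 rows in 6 genes were called in the *ERF* KD-labelled libraries by diffSpliceDGE and 9 rows by limma's diffSplice, with 1 row called by both, where 0.216% and 0.132% of all usage rows were called. On simulated data many calls of diffSpliceDGE over all rows were false, and some of those of limma's diffSplice were too. The row called by both was *SLK-202*, of the gene for a kinase of the cytoskeleton, which was singled out after its values were seen. It was 19.1 and 16.2 TPM in WT, 0.958 and 2.02 TPM in the *ERF* KD-labelled libraries, 16.8 and 11.7 TPM in those labelled *CIC* KO and 18.9 and 15.0 TPM in *ERF* KD + *CIC* KO. *SLK-201*, which lacks the cassette exon, was 11.4 and 8.40 TPM in WT and 22.4 and 22.3 TPM in the *ERF* KD-labelled libraries. *SLK-202* took 62.6% and 65.9% of the pair in WT and 4.10% and 8.32% there, and the libraries did not overlap those of any other group. Its usage fell by 3.34 (SE 0.410, adjusted p = 0.00135 by diffSpliceDGE and 4.64e-06 by limma's diffSplice). The gene sum of *SLK* was 32.6 and 27.7 TPM in WT and 25.4 and 25.0 TPM there.

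Of 27 other splicing regulators, 22 were tested, and 2 of them (9.09%) were called in the *ERF* KD-labelled libraries, a share near the 10.1% of all genes. Of these, 1 was lower in the *ERF* KD-labelled libraries, *RBM47*, an RNA-binding protein of epithelial cells, and 1 higher, *MBNL1*, a regulator of many developmental exons. *RBM47* was 27.7 and 20.5 TPM in WT and 8.02 and 5.85 TPM there, and fell by 1.93 (SE 0.298, adjusted p = 0.00562). *MBNL1* was 61.7 and 59.0 TPM in WT and 76.5 and 89.1 TPM there, and rose by 0.62 (SE 0.138, adjusted p = 0.0267). The median log2 difference of the 22 was 0.03. With the replicate block 4 were called, *CELF2* (1.63, adjusted p = 0.0433) and *PTBP3* (-0.40, adjusted p = 0.0292) in addition. Between *ERF* KD + *CIC* KO and the *ERF* KD-labelled libraries, *RBM47* was called, higher by 2.15 (SE 0.299, adjusted p = 0.00319). *CELF2* (-1.82, adjusted p = 0.0269) and *MBNL1* (-0.39, adjusted p = 0.0383) were called there with the block and not without it (adjusted p = 0.0575 and 0.103).

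Of 11 transcription factors described as acting on ESRP genes or on the epithelial state, 3 were higher and 4 lower in the *ERF* KD-labelled libraries, which is 63.6% of the list beside 10.1% of all genes. The list was chosen with earlier results of these data known, so these shares are no test of it. The repressors *ZEB1* and *ZEB2* went from 4.94 and 4.08 TPM and from 1.37 and 2.79 TPM in WT to 18.5 and 23.1 TPM and to 15.9 and 16.4 TPM, rises of 2.78 (SE 0.195, adjusted p = 0.000131) and 3.24 (SE 0.232, adjusted p = 0.000138). *TWIST1* rose by 1.23 (SE 0.285, adjusted p = 0.0307). Of the factors that maintain epithelia, *OVOL1* fell by 4.29 (SE 0.481, adjusted p = 0.00116), *OVOL2* fell by 4.26 (SE 0.245, adjusted p = 5.43e-05) and *GRHL2* fell by 3.44 (SE 0.153, adjusted p = 3.47e-05). *GRHL1*, the fourth of the lower genes, had a log2 difference of -1.43 (adjusted p = 0.00670). *SNAI1* (-0.50, adjusted p = 0.617) and *SNAI2* (-1.14, adjusted p = 0.162) did not pass. In *ERF* KD + *CIC* KO, *ZEB1* was 2.001 and 2.17 TPM and *ZEB2* 0.958 and 0.862 TPM. Against the *ERF* KD-labelled libraries these are log2 differences of -4.05 (SE 0.211, adjusted p = 3.76e-05) and -3.804 (SE 0.2395, adjusted p = 8.11e-05).

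Of 16 ligands, paralogs and partners of the 4 target genes, 13 were tested, and 3 were higher and 3 lower in the *ERF* KD-labelled libraries, which is 46.2% of those tested beside 10.1% of all genes. This list too was chosen with earlier results known, so the shares are no test of it. The higher ones were *CDH2* (N-cadherin, by 1.81, SE 0.237, adjusted p = 0.00258), *FGF1* (by 1.55, SE 0.372, adjusted p = 0.0356) and *FGF2* (by 1.01, SE 0.254, adjusted p = 0.0412). The lower ones were the p120-catenin partners *CDH1* (E-cadherin, -4.41, SE 0.148, adjusted p = 1.27e-05) and *CDH3* (P-cadherin, -2.95, SE 0.253, adjusted p = 0.000315) and the receptor *FGFR3* (-1.52, SE 0.358, adjusted p = 0.0331). *FGFR1*, a paralog of *FGFR2*, was 42.3 and 44.9 TPM in WT and 44.8 and 56.3 TPM there (log2 difference 0.55, adjusted p = 0.243, or 0.0124 with the block). Of the ligands of the IIIb receptor, *FGF7* was at most 0.912 TPM, *FGF10* at most 0.0376 TPM and *FGF22* at most 2.46 TPM in any library, while *FGF1*, which binds both receptor forms, was 15.9 and 28.8 TPM in the *ERF* KD-labelled libraries and 4.78 to 14.9 TPM elsewhere. *HAS3*, which makes the hyaluronan that CD44 binds, was 19.5 and 55.4 TPM in the *ERF* KD-labelled libraries and 2.22 and 5.36 TPM in *ERF* KD + *CIC* KO, a log2 difference of -3.16 (SE 0.708, adjusted p = 0.0249). For these lists of 21, 22, 11 and 13 genes tested, edgeR called 0 in the *CIC* KO-labelled libraries (1, 0, 0 and 0 at an unadjusted p under 0.05) and 0 in *ERF* KD + *CIC* KO (5, 5, 2 and 2) against WT. With the replicate block 3, 0, 1 and 1 were called in *ERF* KD + *CIC* KO. The last 2 of these were *ZEB1* (-1.27, adjusted p = 0.0171 against 0.0741 without the block) and *HAS3* (-1.09, adjusted p = 0.0423 against 0.571).

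As a description with no test, the genes whose log2 level was most like that of *ESRP1* over the 8 libraries were *RAB25*, *CRYBG1*, *GRHL2*, *VGLL1* and *CGN* (Pearson's r between 0.997 and 0.998, of 13031 genes). The libraries fall into those labelled *ERF* KD and the rest, and over the 6 others the r of these genes with *ESRP1* was between 0.347 and 0.737. *ESRP2* came at rank 116 (r = 0.975, or -0.04 over the 6 libraries) and *FGFR2* at rank 494 (r = 0.912, or 0.389). The genes most like *QKI* were *TFG*, *AAR2*, *CRY1*, *UBQLN1* and *HRH1* (r between 0.963 and 0.977, and between 0.939 and 0.985 over the 6 libraries). The r of *QKI* with *ESRP1* was -0.76, or -0.51 over the 6 libraries.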

How the data were processed

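The authors deposited 1 table per library with estimated counts and TPM for each of 180253 transcripts, in the column format of kallisto, which divides reads that fit several transcripts between them. Estimated counts are not normalized, and TPM is scaled by effective length and library by the authors' software. The methods of the study name RSEM 1.3.3 and the labels the build hg19, while transcript identifiers were matched here to GENCODE 29 (GRCh38) (85.0% found, holding 93.2% to 93.3% of counts). Strandedness is not given in the sources used here.

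Estimated counts were summed per gene, rounded and, after filterByExpr and TMM scaling, tested by the quasi-likelihood method of edgeR 4.0.16 (R 4.3.3) in 1 fit of the 4 groups, with Benjamini-Hochberg adjusted p under 0.05 over 14653 genes. The biological coefficient of variation was 0.197. Isoform usage was tested with diffSpliceDGE on 60245 transcript rows, with member transcripts summed into classes by exon structure. Shares are percentages of TPM, and no interval is given for them because the reads behind them are estimates. An exact test of 2 against 2 libraries cannot go below p = 0.333, so none was used. Tried on simulated data, diffSpliceDGE missed most changes of usage and made many false calls over all rows, though none among rows of low dispersion. Limma's diffSplice (3.58.1) missed fewer, but it too missed most changes and made some false calls over all rows. Because it missed fewer, its adjusted p is given beside class calls.

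Members and lists were chosen with earlier results of these data known. The naming rule took the 8 members and, among their transcripts, those of at least 5% of the gene in a group. Some such transcripts are not described above, among them the unclassed *FGFR2-213* (22.1% of the gene in WT) and *CD44-218* (10.5%). The rule also took at most 3 genes per direction, list and contrast. It added the 5 genes most like *ESRP1* and *QKI* (mean of at least 1 CPM). Not all genes that the rule took are given above for every contrast. Among those left out, *MPRIP* and *FGFR4* were called higher and *KIF13A* lower in *ERF* KD + *CIC* KO than in the *ERF* KD-labelled libraries. *GRHL1*, *SNAI1*, *SNAI2*, *FGFR1*, *FGF7*, *FGF10*, *FGF22*, *CELF2*, *PTBP3*, *SLK* and the markers *VIM*, *KRT14*, *COL1A1* and *PDGFRB* fall outside the naming rule and were named after their values were seen. Alternatives were DESeq2 1.42.0, no filter, counts scaled for length, limma on the log2 of TPM with 1 or 0.1 added, the replicate letter as a block, each library left out, and classes of protein-coding transcripts. Classes with transcripts of unlike length and edgeR with adjusted deviances were added after seeing the data. Log2 differences between letters correlated across groups (0.136 to 0.335, 6 pairs), so the letters may pair libraries. Values of the fit with the block are given where it changed a call of a member and for some other genes. All other values come from the fit without it. Further calls that the block added are not given, among them *ERF* in the *CIC* KO-labelled libraries and *CIC* in *ERF* KD + *CIC* KO, both against WT. Replicates differed by more than sampling noise (chi-square per degree of freedom of 21.5 to 43.1). One gene of the lists and the exon sequences of *FGFR2* are not reported here.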

Additional observations from a re-analysis of the deposited data

Results flagged for a closer look

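By edgeR's interaction term, the log2 differences of the 2 single-loss groups from WT did not add up for 3 of the 8 genes. This is not independent of the comparisons above, which use the same *ERF* KD-labelled libraries. The term was 4.25 for *ESRP1* (adjusted p = 0.000228), 2.44 for *ESRP2* (adjusted p = 0.00167) and 3.98 for *FGFR2* (adjusted p = 0.0452) on the log2 scale. For each of them the *ERF* KD-labelled libraries lay below all 6 others, and the libraries of *ERF* KD + *CIC* KO and those labelled *CIC* KO lay near WT. In isoform usage the same term was -3.40 for the first-start class of *CTNND1* (adjusted p = 0.0358 by diffSpliceDGE and 0.0460 by limma's diffSplice), with 43.2% and 52.4% of classed TPM in the *ERF* KD-labelled libraries and at most 9.82% in the others. As given above, neither the call of *FGFR2* nor that of the *CTNND1* class held in every fit that left out a library. In those fits the terms ran from 3.29 to 5.41 for *FGFR2* and from -3.60 to -3.26 for the *CTNND1* class. The summed mesenchymal markers (1392 and 1682 TPM against at most 215 TPM, most of it *VIM* in the *ERF* KD-labelled libraries) moved with the same libraries. Not every marker in the sum did, and their part in these results was not tested.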

How the results depend on the processing

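Which direction *ESRP1*, *ESRP2* and *FGFR2* took in the *ERF* KD-labelled libraries, against WT and against *ERF* KD + *CIC* KO, did not depend on any alternative run. With 2 libraries a group, counts of calls did. For the *ERF* KD-labelled libraries against WT, 1477 genes were called, and 2577 with no filter on low counts, 2671 with the replicate letter as a block, 790 with length-scaled counts, 964 and 934 by limma on log2 TPM with 1 or 0.1 added, and 620 to 1477 with a library left out. In the *CIC* KO-labelled libraries the count of 0 became 123 with no filter, 1 with the block, 26 by DESeq2 and 0 to 1 with a library left out. For *ERF* KD + *CIC* KO against WT the count of 10 became 768, 365 with the block, 0 with length-scaled counts, 444 by DESeq2, 3 and 3 by limma and 0 to 8 with a library left out. Against the *ERF* KD-labelled libraries the count of 1709 became 2798 with no filter, 3014 with the block, 907 with length-scaled counts, 1035 and 1044 by limma and 702 to 1638 with a library left out. For the interaction term the count of 608 became 1645, 1400 with the block, 274 with length-scaled counts, 1112 by DESeq2, 292 and 277 by limma and 272 to 554 with a library left out. Of the 8 genes, 5 were called with no filter and 5 by DESeq2 in the *ERF* KD-labelled libraries, and 5 with the block between these and *ERF* KD + *CIC* KO, in place of 3. With the block, 2, 3 and 2 isoform classes were called in the 3 comparisons with 1 call each, with limma's diffSplice 2, 3 and 2, and with adjusted deviances 2 in the first of them. With a library left out these counts were 0 to 1, 0 to 1 and 0. Apart from *CTNND1* and the *CD44* results given with the block above, the block changed no call of a member gene or class. The cause of these differences was not tested.

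Some differences that had not passed the test changed sign. With length-scaled counts and by limma on both TPM scales, *RBFOX2* (-0.046, -0.072 and -0.073) and *ENAH* (-0.055, -0.077 and -0.078) turned for the group labelled *ERF* KD. *CD44* (-0.037, -0.0523 and -0.0523) turned for that labelled *CIC* KO and *ESRP1* (-0.019, -0.072 and -0.073) for that with both losses, as did the interaction term of *RBFOX2* (0.093, 0.11 and 0.11). *FGFR2* in *ERF* KD + *CIC* KO was -0.0070 with the block and -0.018 and -0.026 by limma. In usage, the 11a class of *ENAH* turned to 0.14 in the *ERF* KD-labelled libraries and to -0.23 in the interaction with protein-coding transcripts alone, and the class without 11a to 0.0051 in *ERF* KD + *CIC* KO with adjusted deviances. In the *CIC* KO-labelled libraries, the IIIc class of *FGFR2* turned to -0.39 by limma and -0.72 with the block, and the standard class of *CD44* to 0.037 by limma. With a library left out, log2 differences in the *ERF* KD-labelled libraries ran from -0.034 to 0.17 for *RBFOX2*, -0.080 to 0.71 for *CD44*, -0.10 to 0.12 for *ENAH* and -3.55 to 2.66 for the usage of IIIc. In those labelled *CIC* KO they ran from -0.00040 to 0.23 for *QKI*, -1.13 to 0.16 for *FGFR2*, -0.23 to 0.39 for *CD44*, -0.37 to 0.031 for *CTNND1*, -2.78 to 1.73 for IIIc usage, -0.047 to 0.17 for *CD44* variant usage and -0.17 to 0.092 for standard usage. In *ERF* KD + *CIC* KO against WT they ran from -0.086 to 0.12 for *ESRP1*, -0.46 to 0.47 for *FGFR2*, -0.39 to 0.29 for *CD44*, -0.11 to 0.083 for *CTNND1*, -0.20 to 0.50 for *ENAH*, -0.81 to 0.72 for IIIc usage, -0.0084 to 0.013 for third-start usage, -0.031 to 0.094 for 11a usage and -0.10 to 0.057 for usage without 11a. Against the *ERF* KD-labelled libraries they ran from -0.76 to 0.032 for *CD44*, -0.20 to 0.49 for *ENAH* and -2.22 to 3.39 for IIIc usage, and in the interaction from -0.17 to 0.042 for *RBFOX2*, -0.034 to 0.65 for *ENAH* and -3.67 to 2.53 for IIIc usage.

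Shares moved with their unit. As shares of estimated counts, which favour long transcripts, *CD44* variant transcripts took 57.8% (WT), 20.4% (*ERF* KD label), 59.5% (*CIC* KO label) and 65.1% (both losses). The third-start class of *CTNND1* took 93.9%, 92.2% and 94.8% in WT and the groups with *CIC* KO in their label, and 92.2% in WT with transcripts of unlike length. The 11a class of *ENAH* took 62.2%, 55.3%, 65.8% and 63.1% in the 4 groups. Among protein-coding transcripts it took 10.2%, 9.40%, 13.4% and 11.9%, and *CD44* variant transcripts took 75.1%, 76.0% and 80.2% in WT and the groups with *CIC* KO in their label. Depth limits *FGFR2* classes most, with at most 38 classed counts in a library labelled *ERF* KD.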
